A study of Mus musculus with 4 samples.

Results

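A group of 5 genes that encode activating receptors of natural killer (NK) cells was examined in a chromatin accessibility study of cultured mouse NK cells: Ncr1 (NKp46), Klrk1 (NKG2D), Cd226 (DNAM-1), Fcgr3 (the low-affinity IgG receptor CD16) and Crtam. An accessible region belonged to one of them when that gene was its nearest protein-coding gene in GRCm38, by distance to the gene's span. By this rule 47 of the 91266 regions of the series belonged to the 5 genes. ATAC-seq, in which a transposase cuts and tags open DNA, was performed on NK cells from the spleens of wild-type C57BL/6 mice. There were 4 samples, 2 from cells kept in low-dose and 2 from cells kept in high-dose interleukin-15 (IL-15), all for 72 h. The labels give neither the concentrations nor the age of the mice, and do not say whether animals were pooled or how the replicates were separated.

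The deposited data comprised the positions of all regions and the authors' own lists of regions up or down between the doses, held as positions only. They contained no value per sample, fold change or p-value, so that sequencing depth and the spread between replicates are unknown, and the calls are the authors' and were not retested. The labels do not state which dose was the reference, and "up" and "down" are used only as the names of the lists. A region in neither list did not pass the authors' threshold, which is not given, and is not shown to be equally open at both doses. As a check of the labelled cell type, 7 of 7 NK cell genes (Ncr1, Klrb1c, Klrk1, Eomes, Tbx21, Gzma and Prf1) had an accessible region over a gene boundary. The same held for 2 of 4 T cell genes (Cd3e and Cd5), 0 of 4 B cell genes and 1 of 4 myeloid genes (Itgam). Cd4, Cd8a, Ms4a1, Cd79a and Lyz2 had 0 regions. Open chromatin at a gene does not measure its expression, and any part of other cells in the lists was not tested.

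NK cells kill when signals from activating receptors outweigh those from inhibitory receptors. NKp46 and CD16 signal through adaptor chains that carry immunoreceptor tyrosine-based activation motifs, and NKG2D through the adaptors DAP10 and DAP12. DNAM-1 and Crtam bind nectin-like adhesion molecules, and DNAM-1 shares its ligands with the receptors TIGIT and CD96. IL-15 supports the survival, growth and cytotoxic function of NK cells.

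For 3 of the 5 genes, Ncr1, Klrk1 and Fcgr3, RefSeq promoter sequences of GRCm38.p6 were matched. Cd226 and Crtam were not matched. The 250 bases before the outermost start site are shown because in each gene they lay entirely within an accessible region that was in neither list. That of Ncr1 is chr7:4337465-4337714 on the plus strand, that of Klrk1 chr6:129623865-129624114 on the minus strand and that of Fcgr3 chr1:171059404-171059653 on the minus strand. Each is written 5′ to 3′ and ends next to the start site. Capitals mark matches to the letters TGTGGT or their reverse complement ACCACA, the core bound by RUNX factors.

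Ncr1: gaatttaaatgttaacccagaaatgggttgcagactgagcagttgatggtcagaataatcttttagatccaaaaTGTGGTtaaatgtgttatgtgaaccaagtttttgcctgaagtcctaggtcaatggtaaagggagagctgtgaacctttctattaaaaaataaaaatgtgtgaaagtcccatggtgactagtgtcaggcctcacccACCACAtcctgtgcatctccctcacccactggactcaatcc
Klrk1: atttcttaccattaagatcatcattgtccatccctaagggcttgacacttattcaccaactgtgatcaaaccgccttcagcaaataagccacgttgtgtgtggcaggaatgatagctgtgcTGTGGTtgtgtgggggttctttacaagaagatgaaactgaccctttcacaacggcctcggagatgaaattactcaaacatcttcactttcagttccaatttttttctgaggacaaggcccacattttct
Fcgr3: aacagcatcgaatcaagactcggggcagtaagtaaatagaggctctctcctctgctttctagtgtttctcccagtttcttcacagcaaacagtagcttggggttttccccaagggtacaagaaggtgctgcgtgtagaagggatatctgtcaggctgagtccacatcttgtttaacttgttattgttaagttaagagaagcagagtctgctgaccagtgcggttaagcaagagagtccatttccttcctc

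The Ncr1 window held TGTGGT from 176 to 171 bases before the start site and ACCACA from 41 to 36 bases before it. In Klrk1, TGTGGT lay from 129 to 124 bases before the start. The Fcgr3 window held no match. At least 1 match occurred in 14.0% of the 32851 windows of 250 bases before RefSeq start sites. The other motifs searched on both strands were CCGGAAGT and AGGAAGT (ETS factors, one or the other in 10.3% of windows), GGTGTGA (T-box factors, 3.33%), TTCNNNGAA (STAT5, 7.02%) and TGANTCA (AP-1, 6.75%). None of these was present in the 3 windows. No marked match overlapped another motif. These are matches of letters in one window each and do not show binding.

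Among the 47 regions, 6 were in the authors' down list and 0 in their up list. Of the 6, 4 belonged to Ncr1 and 2 to Cd226, while none of the regions of Klrk1, Fcgr3 or Crtam was in either list. Over all 91266 regions, 1.40% were in the down list and 4.21% in the up list. The corresponding shares of the receptor regions were 12.8% and 0%. The down share depended on how far regions were counted: with every region within 50 kb of a gene span it was 6 of 94 (6.38%), with 0 up. The other 5 NK cell genes of the cell type check gave 5 down regions of 71 (7.04%) and 0 up, with 3 of 6 at Gzma (granzyme A), 2 of 17 at Klrb1c (NK1.1) and 0 at Eomes, Tbx21 and Prf1. The difference between the receptor genes and these genes was not tested. These shares have no test, because neighbouring regions are not independent and the genes were chosen with earlier results known. By gene, 2 of the 5 had a down region and 0 had an up region, where 5.39% of the 16387 genes with a region had a down region and 16.1% had an up region. The 0 up, by region or by gene, is close to the shares of the series and is no result about these genes. The same holds for the unlisted regions of Klrk1, Fcgr3 and Crtam, with 5.61% of all regions in either list. Genes with more regions have more that can be listed. By nearest protein-coding gene, the 5 had from 4 regions at Crtam to 20 at Cd226, with a median of 3 over all genes with a region.

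**Figure D1:**
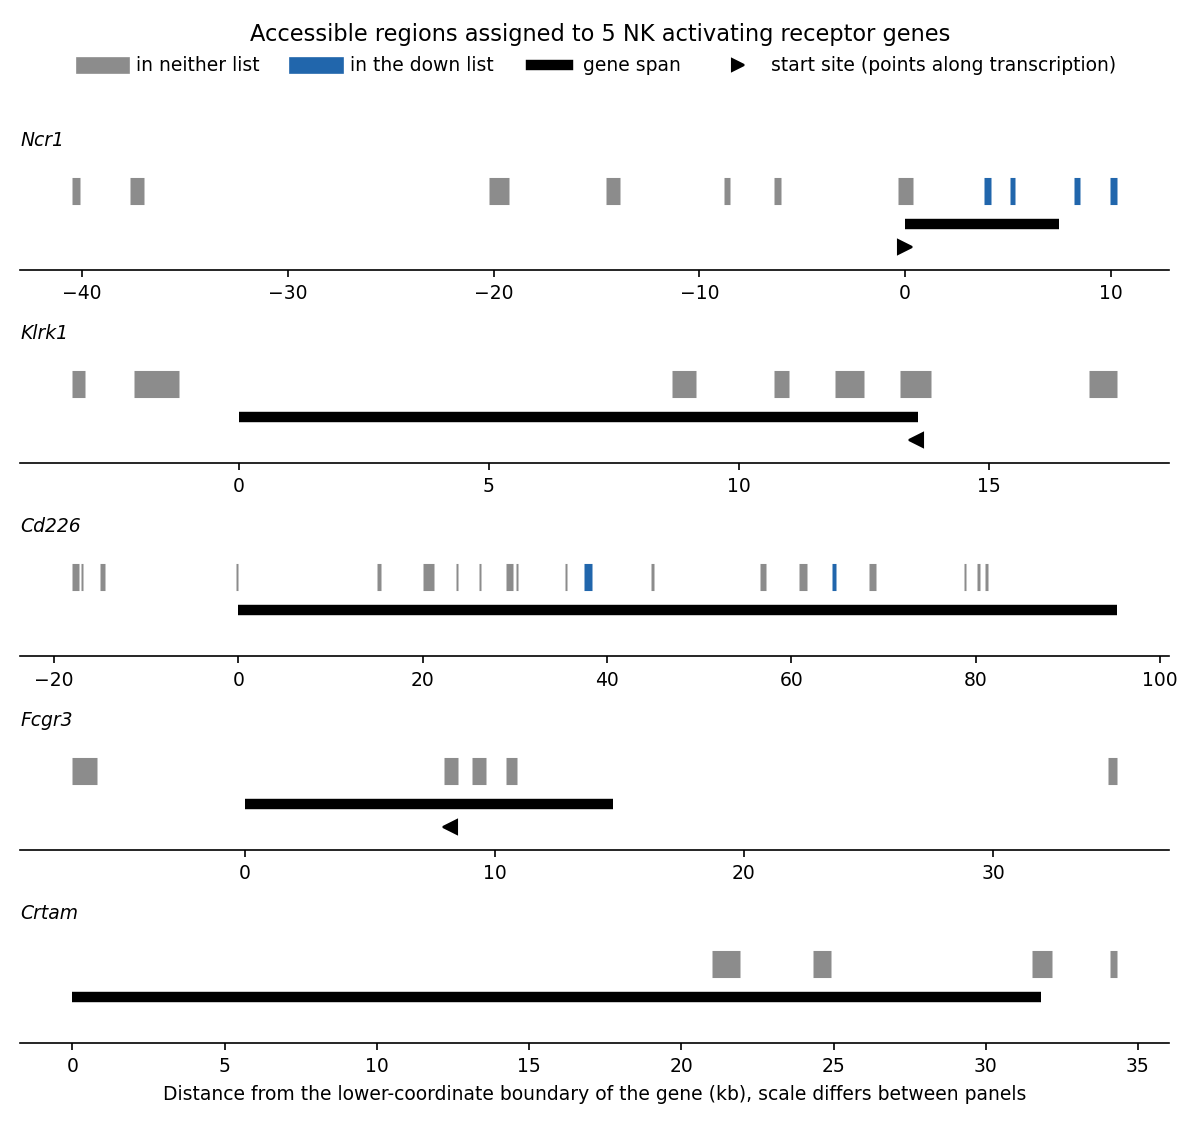
Positions of the accessible regions of each gene, in kb from the lower-coordinate boundary of the gene, with a scale of its own in each panel. Boxes are regions drawn to width (blue, down list; grey, neither list), black bars are gene spans, and arrowheads mark the start site and direction of transcription where the start was matched. The 4 down regions of Ncr1 are its last 4, and the 2 of Cd226 lie inside the gene with unlisted regions between them.

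Ncr1 encodes NKp46, a receptor that marks NK cells in the mouse and that signals through adaptor chains including the Fc receptor gamma chain. The gene occupies chr7:4337715-4345184 on the plus strand (7.47 kb) and had 11 regions over a stretch of 50.8 kb. Reading along the direction of transcription, the first 7 regions were in neither list and the last 4 were all in the down list. The 6 regions upstream lay between 40.1 and 6.03 kb before the gene. They measured 350, 665, 949, 721, 278 and 323 bp, in order towards the gene. The seventh, chr7:4337366-4338125, was 760 bp wide and covered the start site, reaching 349 bp before it and 410 bp beyond it. This promoter region was in neither list.

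The first down region of Ncr1, chr7:4341560-4341872, was 313 bp wide and lay inside the gene, with its centre 4001 bp after the start site. The next, chr7:4342839-4343067, was 229 bp wide and also inside the gene, 5238 bp after the start. Both downstream regions were listed as well. One, chr7:4345908-4346215, was 308 bp wide and began 724 bp past the end of the gene. The other, chr7:4347660-4347998, was 339 bp wide and lay 2476 bp past the end. The 4 regions thus occupied 6439 bp with no unlisted region between them, and were separated from the promoter region by 3434 bp. The following region, 7308 bp further on and nearest to Gp6, was in neither list.

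All 4 down regions of Ncr1 were narrower than the median of the series (400 bp) and of the down list (537 bp). Of all down regions, 4.08% were narrower than the 229-bp region and 17.9% narrower than the 339-bp region. Together they made up 1189 of the 5235 bp covered by the regions of Ncr1, or 22.7%. The 4 widest regions of the gene, from 665 to 949 bp, were in neither list.

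As a description of the whole series, 38 of the 16387 genes with a region (0.232%) had at least 4 down regions. Ncr1, with 4 of 11 (36.4%), was one of 5 genes with at least 4 down regions that made up at least as large a share. Both cut-offs are the values of Ncr1 itself, so that its place among the 5 is by construction and is no independent ranking. This place rests on assignment to the nearest gene: Ncr1 had 4 down of 7 regions (57.1%) within 10 kb of its span, and 2 of 3 within the span, below the 4 regions required. The others, named after their values were seen, were 3300002I08Rik (4 of 5), Gsta3 (4 of 7), Prlr (8 of 17) and Khdc1a (5 of 12). Down regions formed 1143 runs without an unlisted or up region between them, and 1035 of these runs were a single region. The longest runs were of 4 regions, and there were 5 of them, at Khdc1a, 3300002I08Rik, Tbc1d1, Ncr1 and Prlr. The run at Ncr1 was the shortest of the 5 in base pairs, at 6439 bp against 6954 to 17647 bp.

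Cd226 encodes DNAM-1, an adhesion receptor for the ligands CD155 (Pvr) and CD112 (Nectin2). The gene spans chr18:89176954-89272232 (95.3 kb), the longest of the 5, and had 20 regions, 16 of them inside the gene. Inside the gene this was 1.68 regions per 10 kb, against 4.02 for Ncr1, 2.95 for Klrk1, 2.03 for Fcgr3 and 0.942 for Crtam. The first down region, chr18:89214485-89215284, was 800 bp wide and lay 37.5 kb from the nearer gene boundary. The second, chr18:89241307-89241775, was 469 bp wide and 30.5 kb from the other boundary. Between them lay 3 regions of 319, 647 and 835 bp in neither list, so that, unlike at Ncr1, the down regions were not consecutive.

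Within gene spans, 1.36% of the 55727 regions of the series were down, against 2 of 16 at Cd226. Over the series, 217 of the 16387 genes with a region had at least 2 down regions, and of the 757 genes with 20 or more regions 124 (16.4%) did. The cut-offs of 2 and 20 are the values of Cd226, which is counted among these genes by construction. The 800-bp region was wider than 82.9% of the down list and the 469-bp region wider than 38.4%. The widest region of the gene, chr18:89196948-89198212, measured 1265 bp, the largest width among the 47, and was in neither list. The region nearest a boundary, chr18:89176695-89176910, was 216 bp wide, ended 44 bp short of the lower boundary and was unlisted. The other 3 regions outside the gene lay 14.5 to 17.3 kb below it, were 164 to 697 bp wide and were unlisted. The remaining 10 regions inside the gene ranged from 189 to 785 bp and were unlisted too.

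Klrk1 encodes NKG2D, the receptor for stress-induced ligands related to MHC class I molecules. It lies in the NK gene complex at chr6:129610323-129623903 on the minus strand (13.6 kb). It had 7 regions with a median width of 555 bp, of which 0 were listed. The promoter region, chr6:129623540-129624156, measured 617 bp, and reached 292 bp before and 324 bp beyond the start site. Inside the gene, 3 further regions of 592, 307 and 493 bp had their centres 1332, 2695 and 4641 bp after the start. One region of 555 bp was upstream, 3409 bp from the gene. The widest, chr6:129608236-129609137, was 902 bp wide and lay 1186 bp past the end of the gene, followed by one of 250 bp at 3070 bp. Klrk1 sat within 112 consecutive regions of which none was listed, over 634 kb. The stretch was drawn out to the nearest listed region on each side, so it is unlisted by construction. The usual length of such stretches in the series was not determined, and whether this one is long is unknown. This stretch also held the regions of Klrd1, Klrc1, Klrc2 and Klrc3, the genes of the CD94-NKG2 receptors. It ended at a down region nearest to Clec2d, 428 kb from Klrk1, and at an up region nearest to Klra17, 195 kb away on the other side.

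Fcgr3 encodes CD16, through which NK cells recognise cells coated with antibody. Its span is chr1:171051169-171065915 on the minus strand (14.7 kb), and it had 5 regions, none listed. The promoter region, chr1:171059128-171059690, was 563 bp wide, and reached 287 bp before and 275 bp beyond the outermost matched start site. This start lies inside the span of the gene table, and regions of 582 and 411 bp had their centres 1150 and 2445 bp upstream of it, still in that span. The widest region, chr1:171044246-171045224, measured 979 bp and lay 5945 bp past the end of the gene. The fifth, of 358 bp, was 19.8 kb from the gene on the other side. Fc gamma receptor genes resemble each other in sequence, and how reads matching more than one of them were treated is not given in the sources used here. The neighbouring Fcgr2b and Fcgr4 had 9 and 8 regions and Fcgr1, on another chromosome, had 10, with 0 listed in all 3.

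Crtam encodes an activation-induced receptor that binds Cadm1. The gene lies at chr9:40972798-41004628 (31.8 kb) and had the fewest regions of the 5, with 4, none listed. The region over its upper boundary, chr9:41004334-41004974, measured 641 bp. Inside the gene, the widest region, chr9:40993803-40994719, was 917 bp wide and 9.91 kb from that boundary, and another of 596 bp was 6.92 kb from it. The fourth region, of 230 bp, lay 2239 bp beyond the boundary. No region assigned to Crtam lay further towards the lower boundary of the gene.

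The promoter regions of Ncr1, Klrk1 and Fcgr3 were all in neither list. This is close to what was seen over the series, where 0.352% of the 10236 regions over a RefSeq start site were down and 1.06% were up, and is no result about these genes. The widest region of each of the 5 genes was also unlisted, at 949 bp for Ncr1, 902 bp for Klrk1, 1265 bp for Cd226, 979 bp for Fcgr3 and 917 bp for Crtam. With 5.61% of all regions in either list, this too is no result about these genes. Of the 29 receptor regions in gene spans 4 were down, and of the 18 outside them 2 were down, with 0 up in both. Over the series, 1.36% of regions in spans and 1.45% of those outside were down, and 3.42% and 5.46% were up.

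**Figure D2:**
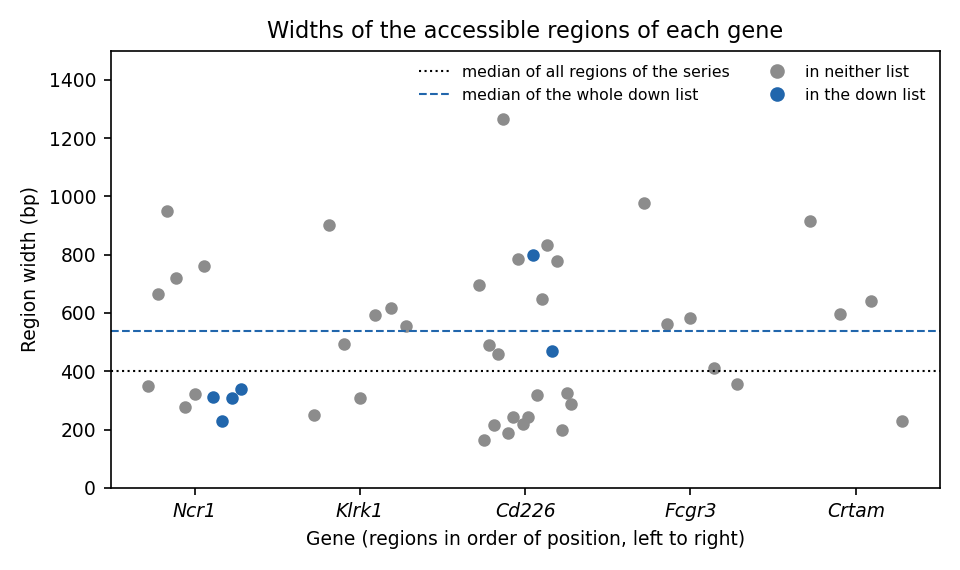
Width in bp of each accessible region (1 point per region, in order of position from left to right within a gene), blue for the down list and grey for neither list. The dotted line is the median of all regions of the series (400 bp) and the dashed line that of the down list (537 bp); the 4 down regions of Ncr1 lie below both lines, and those of Cd226 at 469 and 800 bp lie on either side of the dashed line.

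Regions assigned to other genes around the 5 genes were then counted. Within 100 kb of the gene spans lay 103 regions assigned to other genes, of which 0 were up and 0 were down, against 5.61% in either list over the series. This difference was not tested, because neighbouring regions are not independent. Regions over a start site, of which 0.352% were down and 1.06% up over the series, were not counted apart. There were 47 around Klrk1, 26 around Fcgr3, 13 around Crtam, 12 around Cd226 and 5 around Ncr1. The nearest down region of another gene was 267 kb from Ncr1, nearest to Ptprh, and 252 kb from Cd226, nearest to Socs6. The nearest up region lay 727 kb from Ncr1, nearest to Oscar, and 276 kb from Cd226, nearest to Socs6. The down regions at Ncr1 and Cd226 thus had no listed neighbour of another gene within 100 kb. With only 5 and 12 such regions around them and 5.61% listed over the series, this is no result about these genes. Around Fcgr3, 130 consecutive regions over 1030 kb were unlisted, up to an up region nearest to Atf6 on one side and a down region nearest to Slamf6 on the other. Around Crtam the number was 76 over 624 kb, between up regions nearest to Clmp and to Ubash3b. As for Klrk1, these stretches are unlisted by construction, and their length was not compared with the series.

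The genes that act with the receptors were examined by role. Of the 4 signalling adaptor genes, Hcst (DAP10), Fcer1g (the Fc receptor gamma chain) and Cd247 (CD3 zeta) had 3, 2 and 17 regions with 0 listed. Tyrobp (DAP12) had 1 down region of 8, a region of 680 bp at chr7:30402199-30402878, 10.9 kb outside the gene. In all, 1 of 30 adaptor regions was down (3.33%) and 0 were up.

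Most of the 9 ligand genes encode surface proteins of target cells, while Cfp encodes properdin, a secreted complement protein reported to bind NKp46. The 9 genes had 40 regions, 2 down and 1 up. Both down regions were nearest to H60b, which encodes an NKG2D ligand, and lay 12.8 and 13.3 kb outside it, with widths of 256 and 1001 bp. The up region, of 999 bp, was 9.39 kb from Ulbp1, another NKG2D ligand gene. NKG2D ligand genes belong to families of similar sequence, with the same limit on mapping as for Fcgr3. The DNAM-1 ligand genes Pvr and Nectin2 had 6 regions and 1 region, and Cadm1 and Cfp had 2 each, none listed. Among the receptors that share the ligands of DNAM-1, Tigit had 1 up region of 13, 32.7 kb from the gene and 297 bp wide. Cd96 and Pvrig had 8 and 3 regions and none was listed.

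The 11 genes of proximal kinases and effectors had 198 regions, 6 down (3.03%) and 3 up (1.52%). Fyn, a Src-family kinase with 58 regions, had 4 down and 1 up, and 2 of its down regions, of 576 and 504 bp, were inside the gene and 94.8 kb or more from its boundaries. Syk, a kinase that docks on phosphorylated adaptors, had 1 down region of 25, and Plcg2, a phospholipase that generates calcium signals, had 1 of 21. Plcg1 and the kinase subunit gene Pik3cd had 1 up region each, of 10 and 14. Zap70, Lck, Lat, Lcp2, Vav1 and Grb2 had none in either list. In all 5 groups the counts stand beside 1.40% down and 4.21% up over the series and were not tested.

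**Figure D3:**
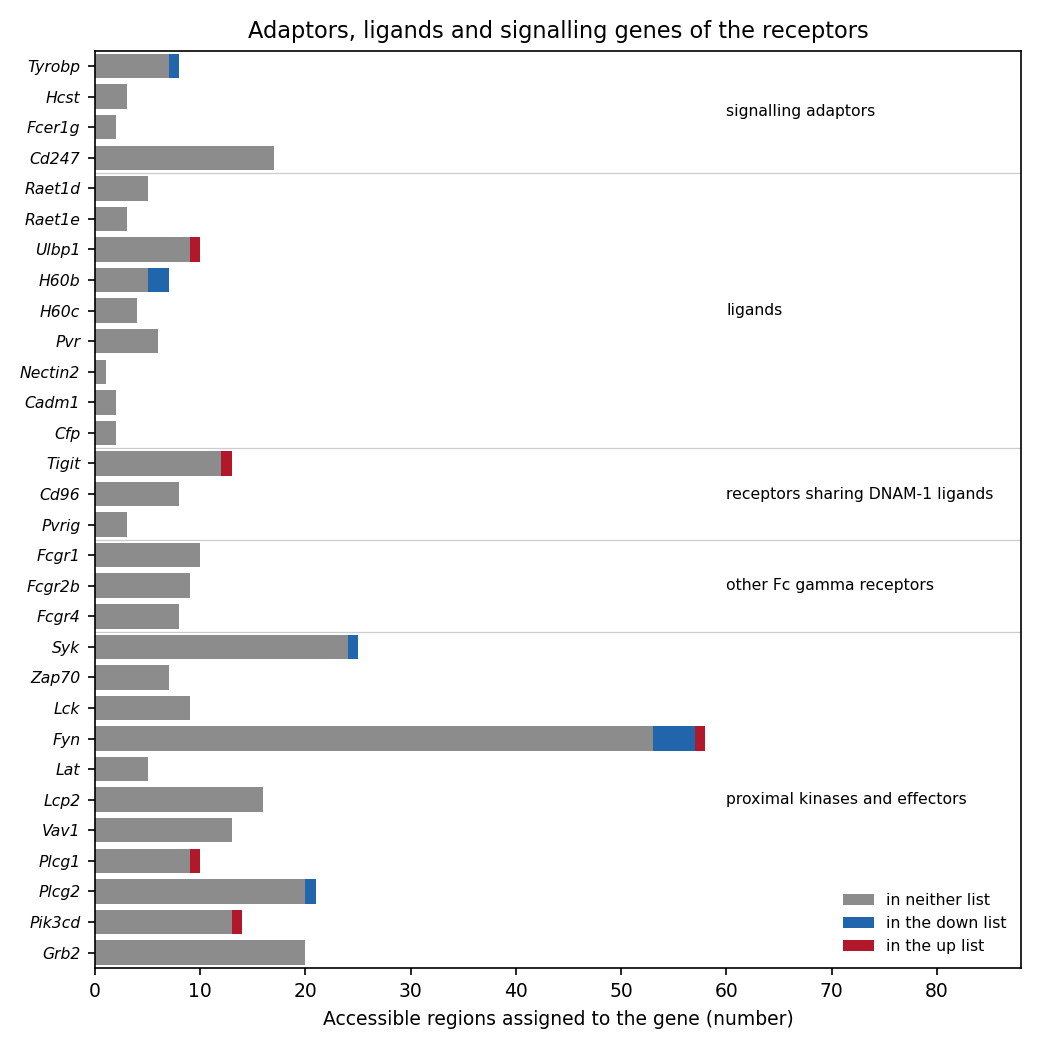
Number of accessible regions assigned to each gene of the receptors' adaptors, ligands, competing receptors, other Fc gamma receptors and proximal signalling genes. Bar segments are regions in the down list (blue), in the up list (red) and in neither list (grey); Fyn has the most regions, 58, with 4 down and 1 up, while most genes have only unlisted regions.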

How the data were processed

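ATAC-seq regions from 2 samples per IL-15 dose were used as deposited. The submitters' processing notes name BWA, ArchR, MACS2, HOMER 4.11.1 and the build mm10, without role or order. The samples behind each peak call (single or pooled), the differential test, its threshold and its reference dose, are not given in the sources used here. The 3 tables deposited by the authors hold positions and widths in bp only, with 0 columns of values per sample.

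The full table counts starts from 0, and 1 was added to each. Each of the 5120 listed regions was then identical to one of the 91266 regions, and 0 were in both lists. Gene spans, start sites and promoter sequences came from RefSeq tables of GRCm38.p6, the assembly that mm10 represents. Exons, introns and UTRs were not annotated. Regions went to the nearest of 21900 protein-coding genes by distance to the span, with ties to the nearer gene end. Assignment, list lookup and motif search were tested on simulated data (Python 3.11.15, pandas 2.3.3). The planned model of accessibility needs values per sample and was not run.

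The members and gene lists were chosen with earlier results of these data known. Regions described one by one are those in a list, those at a start site or boundary, the widest of each gene and, beyond that rule, further regions of these genes. Alternatives varied the assignment, the overlap and the width of regions.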

Additional observations from a re-analysis of the deposited data

How the results depend on the processing

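No paired analysis was possible because the tables hold no value per sample, so the replicate numbers 1 and 2 shared by the doses could not be used. The model of accessibility, its other normalizations and filters and the fits leaving out a replicate were not run either. Assignment by the nearest start site was not run, since starts were matched for 3 of the 5 genes.

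The number of regions near the 5 genes was 47 and became 29 within gene spans and 94 within 50 kb of them, by the construction of these alternatives. The down share was 12.8%, and was 13.8% within spans, 15.0% within 10 kb, 14.0% for genes of any biotype and 6.38% within 50 kb. The number of down regions was 6. It was 4 within spans and 6 within 10 kb, within 50 kb, for genes of any biotype and at either overlap. It became 2 among regions wider than the median of all, both at Cd226, since the down regions of Ncr1 are narrower than that median. The number of up regions was 0 in each of the 7 alternatives run, but only those within 10 and 50 kb could bring in further regions. The span, biotype and width alternatives keep part of a set with 0 up. Each listed region is identical to a region of the series, so the overlap alternatives had little room to change the counts. Ncr1 had 4 of 11 regions down, 2 of 3 within its span, 4 of 7 within 10 kb, 4 of 14 within 50 kb and 4 of 9 for genes of any biotype. Region counts also moved by over 1.5 times at Klrk1 (7, against 4 within the span and 34 within 50 kb), Fcgr3 (5, against 3 within the span, 15 within 50 kb and 3 for genes of any biotype) and Crtam (4, against 8 within 50 kb), with 0 down in each. With no depth or value per region, the size of any difference between the doses cannot be given.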
